A study of Mus musculus with 40 samples.

Results

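L1MdA_I is a young mouse subfamily of LINE-1 (L1), the retrotransposon that copies itself through an RNA. The copies described here are the single L1MdA_I copies of at least 5000 bp in the table of uniquely mapped reads over transposable element (TE) copies, long enough to be near full length. There were 1329 of them among 3799629 TE copies, with lengths from 5008 to 13238 bp and a median of 6191 bp. They were divided by position: 360 overlapped the span of a gene of the gene table ("inside") and 969 did not ("outside"), of which 348 lay 50 kb or more from any gene. Of the 360 inside copies, 226 lay in introns opposite to the host gene's strand, 109 in introns on the same strand, 6 in introns of genes on both strands, and 19 overlapped an exon. A read was counted over 1319 copies in at least 1 library, and 10 copies had none.

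The study asked how lamins and the lamin B receptor (LBR) hold heterochromatin at the nuclear periphery and what happens to silencing when it leaves. Total RNA was sequenced from XY mouse embryonic stem cells in the naive state (mES), grown with LIF and the inhibitors CHIR (3 µM) and PD0325901 (1 µM), and from epiblast-like cells (EpiLC) made from them over 48 h with FGF (20 ng/mL) and Activin A (12 ng/mL). Each stage had 8 wild-type (WT) libraries and 4 each of LBRKO (Lbr disrupted), TKO (Lmna, Lmnb1 and Lmnb2 deleted) and QKO (the TKO deletions plus disrupted Lbr), 40 libraries in 8 groups. Each library came from 1 well, so all p-values measure the spread between wells; all QKO wells derive from 1 clone of the TKO line, the sources used here do not say which clone each LBRKO library is, and the study's methods give the TKO line an extra chromosome 8, and describe lost Y chromosomes in part of the TKO and WT cells and extra chromosomes 6 and 8 in part of the WT cells.

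A full-length L1 has an internal promoter at its 5′ end, followed by ORF1, which encodes an RNA-binding protein, and ORF2, which encodes the endonuclease and reverse transcriptase. In mouse L1 subfamilies the promoter is built from repeated units called monomers. Lamins and LBR are proteins of the inner face of the nuclear envelope, where L1-rich heterochromatin gathers. Silencing of young L1 in pluripotent cells involves H3K9 methylation, the HUSH complex and DNA methylation, which is low in naive cells and rises on the way to the epiblast.

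The copies are nearly the same in sequence, which limits how many reads can be given to 1 of them. Among the 1122 copies with an ORF1, 1073 had one of 1074 nt, with a median of 2 differences (range 0 to 26) from the commonest ORF1, a median identity of 99.8%. The commonest ORF1 itself was found unchanged in 165 copies. A long ORF2 was found in 389 copies, of 3846 nt in 361 of them, and 357 copies held both frames. Of all 150-base windows of a copy, a median of 9.77% (range 0 to 96.2) occurred nowhere else among L1Md copies of the mouse genome (GRCm39), and 28 copies had no such window. To show how alike the copies are, the first 120 nt of ORF1 of 4 of the copies with the most reads counted follow, 5′ to 3′ on the strand of the copy, with capitals for bases that differ from the commonest ORF1. The first, L1MdA_I_dup504 (chr2:80641733-80641852, minus strand), carries the commonest ORF1 throughout; the others lie at chr1:84242801-84242920 (plus strand), chr5:68376037-68376156 (minus strand) and chr10:46848301-46848420 (minus strand).
L1MdA_I_dup504: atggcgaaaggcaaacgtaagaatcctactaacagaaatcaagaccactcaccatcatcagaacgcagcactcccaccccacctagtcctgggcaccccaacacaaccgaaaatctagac
L1MdA_I_dup189: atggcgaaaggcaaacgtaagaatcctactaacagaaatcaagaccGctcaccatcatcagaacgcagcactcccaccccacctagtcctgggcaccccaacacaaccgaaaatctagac
L1MdA_I_dup1453: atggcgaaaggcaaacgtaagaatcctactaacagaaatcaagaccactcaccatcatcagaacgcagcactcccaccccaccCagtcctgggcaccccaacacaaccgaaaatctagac
L1MdA_I_dup3218: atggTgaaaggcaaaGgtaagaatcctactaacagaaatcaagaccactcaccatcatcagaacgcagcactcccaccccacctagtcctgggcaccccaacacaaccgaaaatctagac
The capitals are A47G in L1MdA_I_dup189, T84C in L1MdA_I_dup1453, and C5T and C16G in L1MdA_I_dup3218, written as the commonest base, the position counted from 1 at the A of the start codon, and the base of the copy.

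A read is assigned to a copy through such differences or through the flanking genome. Some differences belonged to a single copy among the 1073 compared, and these are shown for 5 copies named in the results, as the 61 bases around the difference with the differing base in capitals. They are A738G in L1MdA_I_dup4249 (chr16:42804058-42804118, minus strand), A446T in L1MdA_I_dup1557 (chr6:66982763-66982823, minus strand), C969G in L1MdA_I_dup1453 (chr5:68375158-68375218, minus strand), C458T in L1MdA_I_dup189 (chr1:84243228-84243288, plus strand) and C587A in L1MdA_I_dup3703 (chr13:50174211-50174271, minus strand).
L1MdA_I_dup4249: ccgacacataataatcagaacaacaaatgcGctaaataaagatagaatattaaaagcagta
L1MdA_I_dup1557: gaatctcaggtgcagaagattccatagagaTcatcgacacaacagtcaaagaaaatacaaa
L1MdA_I_dup1453: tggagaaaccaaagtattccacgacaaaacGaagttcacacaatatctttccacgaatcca
L1MdA_I_dup189: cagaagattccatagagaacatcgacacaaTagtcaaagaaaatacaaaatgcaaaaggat
L1MdA_I_dup3703: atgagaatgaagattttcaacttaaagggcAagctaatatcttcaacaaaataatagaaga

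The libraries held 22.6 to 48.9 M reads counted over genes and 1176 to 40189 over the 1329 copies. Levels are given as CPM, read counts scaled to a fixed total of reads over genes with TMM factors; a CPM of a copy grows with its length and with how much of it is unique, so the order of copies by CPM follows the reads counted, not transcription per length, and the classes of copies by 5′ end, length and frames are compared per unique window. LBRKO libraries and WT 5 to 8 (39.4 to 48.9 M) were deeper than TKO, QKO and WT 1 to 4 (22.6 to 33.6 M), and for the main ratios and counts the values against parts of WT are given as well. Of the targeted genes in mES, Lmnb1 stood at 514 CPM in WT, 8.46 in TKO and 13.8 in QKO, Lmnb2 at 105, 4.30 and 2.58, and Lmna at 57.7, 15.9 and 19.06. In EpiLC the same groups held 516, 0.840 and 1.83 CPM of Lmnb1 and 95.8, 2.57 and 1.47 of Lmnb2. Lmna stood at 11.3, 7.74 and 8.38 CPM in EpiLC, less than 2-fold lower in the mutants, so there its RNA is a partial check. Lbr was at 372 ± 20.6 CPM (SD, n = 8) in WT mES, 209 ± 64.4 (n = 4) in LBRKO and 237 in QKO, less than 2-fold lower, so its RNA is only a partial check of the labels. Summed naive markers lay at 3727 to 5241 CPM in mES libraries against 119 to 306 in EpiLC, summed primed markers at 130 to 210 against 2203 to 3838, and those of primitive endoderm, trophectoderm and fibroblasts at 2.98 to 14.5, 0.621 to 4.88 and 2.33 to 13.7 CPM over all libraries. Within these ranges some groups differed from WT. Primed markers lay at 2203 to 2316 CPM in QKO EpiLC and 2522 to 2857 in LBRKO EpiLC against 3148 to 3838 in WT EpiLC. Naive markers lay at 204 to 306 CPM in LBRKO EpiLC against 119 to 185 in WT EpiLC, so LBRKO EpiLC differed from WT EpiLC in the markers of both stages. Primitive endoderm markers lay at 13.2 to 14.5 CPM in LBRKO mES against 6.23 to 8.32 in WT mES, and at 7.84 to 12.7 in QKO EpiLC against 5.07 to 7.77 in WT EpiLC. Summed 2-cell-like markers lay at 2.51 to 3.96 CPM in WT EpiLC and at 0.0627 to 0.426 in LBRKO EpiLC. All TKO EpiLC libraries (median 0.753 CPM) and all QKO EpiLC libraries (median 0.679 CPM) also lay below every WT EpiLC library, so this difference was not particular to LBRKO.

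Together the near full-length copies gave little RNA in WT mES and much more in the cells without lamins. In WT mES their summed level had a lowest, median and highest value of 34.7, 39.8 and 58.7 CPM. It was 721, 703, 674 and 769 CPM in the 4 TKO mES libraries and 988, 1033, 989 and 913 CPM in the 4 QKO mES libraries. All 8 mutant libraries lay above all 8 WT libraries, and every QKO library above every TKO library. The mean was 17.2-fold higher in TKO (717 ± 39.997 against 41.6 ± 7.53 CPM, SD, n = 4 and 8) and 23.6-fold in QKO (981 ± 50.1 CPM, n = 4). Against WT 1 to 4 alone the ratios were 17.7 and 24.2, and without the copies on chromosomes 6, 8, X and Y they were 17.9 and 24.3. In bulk RNA, more cells that transcribe a copy and more RNA of it per cell cannot be told apart. LBRKO mES libraries, at 39.99, 32.1, 44.9 and 34.7 CPM, overlapped the WT libraries, with a ratio of 0.911 and of 0.887 against WT 5 to 8, the WT libraries of like depth.

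In EpiLC the copies stood higher in WT than in mES, and the mutants again lay in the order LBRKO, TKO, QKO. WT EpiLC gave 81.8, 108 and 113 CPM as the lowest, median and highest of 8, and LBRKO EpiLC 134, 132, 218 and 161 CPM. TKO EpiLC gave 418, 471, 474 and 454 CPM, and QKO EpiLC 1126, 1006, 1067 and 1125 CPM. None of the 4 groups overlapped: LBRKO EpiLC lay 1.603-fold above WT, TKO EpiLC 4.51-fold and QKO EpiLC 10.7-fold. The LBRKO ratio was 1.41 without LBRKO EpiLC 3, its highest library, and 1.76 against WT 5 to 8 alone, while against WT 1 to 4 alone the TKO ratio was 4.14 and the QKO ratio 9.85. Between stages the summed level was 2.42-fold higher in WT EpiLC than in WT mES and 4.25-fold higher in LBRKO EpiLC than in LBRKO mES, while in TKO it went the other way, with EpiLC at 0.634 of the mES level. QKO was 1.102-fold higher in EpiLC with overlapping libraries on the gene scale, and 0.916-fold when scaled by TE counts. QKO stood 2.38-fold above TKO in EpiLC and 1.37-fold in mES, the latter turning to 0.947 when scaled by TE counts. On that scale QKO was 13.3-fold above WT in mES and 5.68-fold in EpiLC.

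**Figure D1:**
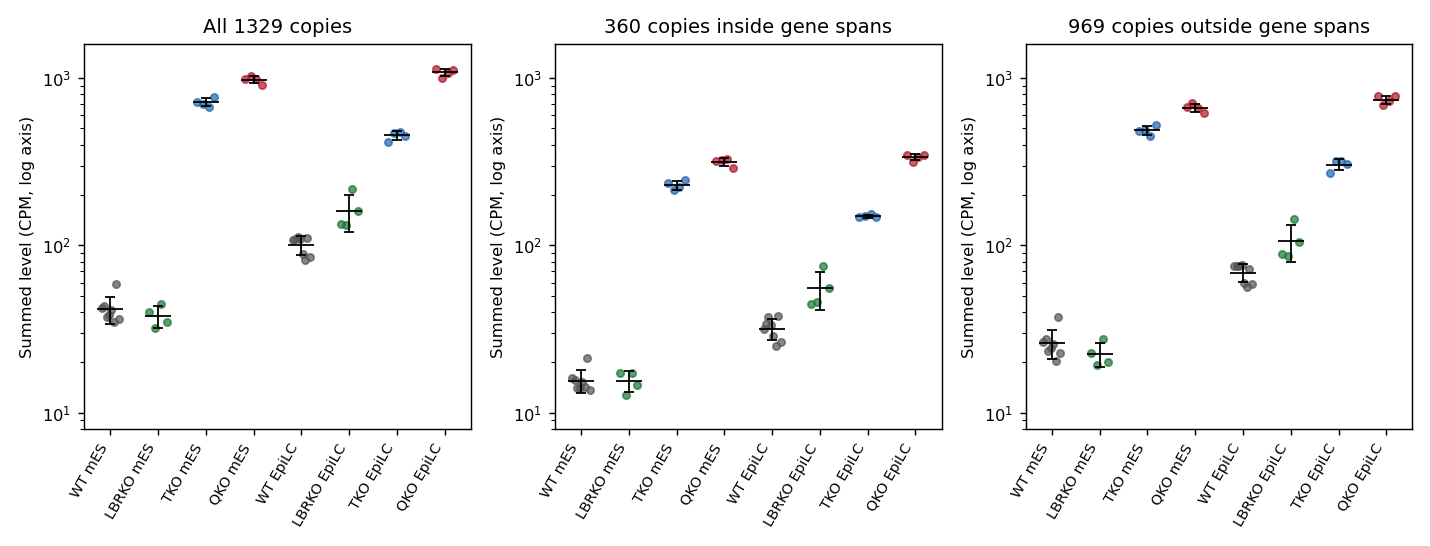
Summed level of the near full-length L1MdA_I copies in each of the 40 libraries (points) with the group mean and SD, in CPM on a log axis, for all 1329 copies, the 360 inside gene spans and the 969 outside. WT and LBRKO mES libraries lie together at 32.1 to 58.7 CPM for all copies, TKO at 674 to 769 and QKO at 913 to 1033, and the inside and outside panels show the same order in mES.

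The higher level was spread unevenly over the copies. The 10 highest copies held 16.8% of the summed level in WT mES, 23.9% in TKO mES and 20.9% in QKO mES. Of the 1329 copies, 109 made up 50% of the WT mES level, 54 made up 50% of the TKO and 68 of the QKO level. The mean level was over 1 CPM for 2 copies in WT mES, 1 in LBRKO mES, 123 in TKO mES and 191 in QKO mES, and for 5, 14, 85 and 225 copies in the EpiLC groups in the same order. Without the 10 highest copies the ratio to WT mES was 14.7 in TKO and 21.0 in QKO.

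The whole L1MdA_I row of the multimapped table, in which reads with several alignments are shared out, gave 273 ± 77.8 CPM in WT mES (SD, n = 8), 2354 ± 101 in TKO mES and 3152 ± 173 in QKO mES (n = 4 each). The unique reads over the near full-length copies came to 16.02% of that level in WT mES, 30.5% in TKO and 31.2% in QKO. Among the uniquely mapped reads of all numbered L1MdA_I copies, the near full-length ones took 26.7% ± 12.3 in WT mES, 76.5% in TKO mES and 81.5% in QKO mES, and 45.5%, 77.3% and 82.8% in the EpiLC groups. LBRKO, at 26.8% in mES and 44.1% in EpiLC, was within the spread of WT. So most of the unique family signal in the lamin mutants, but not in WT mES, lay on these copies.

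Copy by copy, nearly every copy with enough reads to test was higher in QKO and most were in TKO. The test was edgeR's quasi-likelihood test over all 131824 TE copies with enough reads, and calls needed a fold over 2 and a p, adjusted by Benjamini-Hochberg, under 0.05. Of the 1329 copies, 684 passed the filter on low counts (200 inside, 484 outside) and 645 did not; a copy that passed only through a high mutant group had to differ, so these are not all copies. In mES, 673 of the 684 were called higher in QKO, with 24.2% of all tested TE copies called higher, and 617 in TKO, with 3.48% of all. The median log2 fold over the 684 was 4.34 in QKO and 3.70 in TKO, against 0.77 and 0.23 over all tested TE copies. More than 10-fold higher were 568 copies in QKO and 434 in TKO, against 1.95% and 0.924% of all.

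In EpiLC, 666 of the 684 copies were called higher in QKO (29.3% of all tested TE copies) and 2 lower (1.4% of all), with a median log2 fold of 3.23 against 0.81 over all. In TKO EpiLC 317 were higher (2.07% of all) and 5 lower (0.557% of all), with a median of 1.80 against 0.05. The lower copies, listed after their values were seen where the naming rule did not hold them, were L1MdA_I_dup25 (log2 fold -1.52 ± 0.53) and L1MdA_I_dup2894 (chrX:149516039-149523039, -1.78 ± 0.63) in QKO, and L1MdA_I_dup255, L1MdA_I_dup2046, L1MdA_I_dup2174, L1MdA_I_dup2370 and L1MdA_I_dup4426 in TKO. More than 10-fold higher were 313 in QKO EpiLC and 84 in TKO EpiLC, against 2.44% and 0.408% of all. Against WT 1 to 4 alone 204 copies were called in TKO EpiLC in place of 317, while 649 were called in QKO EpiLC, 570 in TKO mES and 663 in QKO mES.

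A count that needs no filter gave the same order. Over the 1319 copies with a read, every QKO mES library lay above every WT mES library for 911 copies (69.1%), and every TKO mES library for 709 (53.8%). The same held for 851 copies (64.5%) in QKO EpiLC and 274 (20.8%) in TKO EpiLC. Over all TE copies with a read the shares were 1.97%, 0.468%, 2.47% and 0.253%. The group mean was higher than in WT for 1298, 1269, 1295 and 1182 of the 1319.

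Among copies that passed the filter, neighbouring sets of L1 copies gave lower shares. A copy could pass through a high mutant group, so these shares do not rank the sets as wholes. Of shorter L1MdA_I copies, under 5000 bp, 68 of 3353 passed the filter, and 50 of these were called higher in QKO mES (median log2 fold 3.75) and 47 in TKO mES. Of 2533 L1MdA_II and L1MdA_III copies of at least 5000 bp, 270 passed, and 205 of these were higher in QKO mES (median 3.36) and 144 in TKO mES (median 2.41). Of 4737 L1MdTf and L1MdGf copies of that length, the other young subfamilies, 1283 passed, and 674 of these were higher in QKO mES (median 1.27) and 157 in TKO mES (median 0.58). No filter-free count is given for the neighbouring sets, and the difference between the sets was not tested.

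Position inside or outside a gene made little difference to these counts, and the difference between the classes was not tested. In QKO mES 197 of 200 tested inside copies (median log2 fold 4.15) and 476 of 484 outside copies (median 4.38) were called higher, and in TKO mES 174 (median 3.73) and 443 (median 3.68). In EpiLC the counts were 194 inside (median 3.24) and 472 outside (median 3.23) in QKO, and 98 and 219 in TKO with a median of 1.80 for both. Summed, the inside copies stood at 15.5 CPM in WT mES, 230 in TKO and 316 in QKO, ratios of 14.8 and 20.3, and the outside copies had ratios of 18.7 and 25.5. The inside share of the summed level was 37.5% ± 1.64 in WT mES, 41.0% in LBRKO mES, 32.03% in TKO mES and 32.2% in QKO mES, and 31.5%, 34.3%, 33.0% and 31.2% in the EpiLC groups. The filter-free count for QKO mES was 252 inside and 659 outside copies.

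Inside genes, copies on either strand were called. In introns on the gene's own strand 54 of 55 tested copies were higher in QKO mES (median log2 fold 4.04) and 48 in TKO mES, and in introns opposite to the gene 126 of 128 (median 4.15) and 110. All 13 tested copies that overlap an exon were higher in QKO mES (median 4.63). Far from genes, at 50 kb or more, all 165 tested copies were higher (median 4.39). The TE counts do not separate strands: in these data the counts of intronic repeat copies on the gene's strand and opposite to it gave a ratio of 0.989, so reads of a host gene's intron and reads of the copy cannot be told apart by strand.

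**Figure D2:**
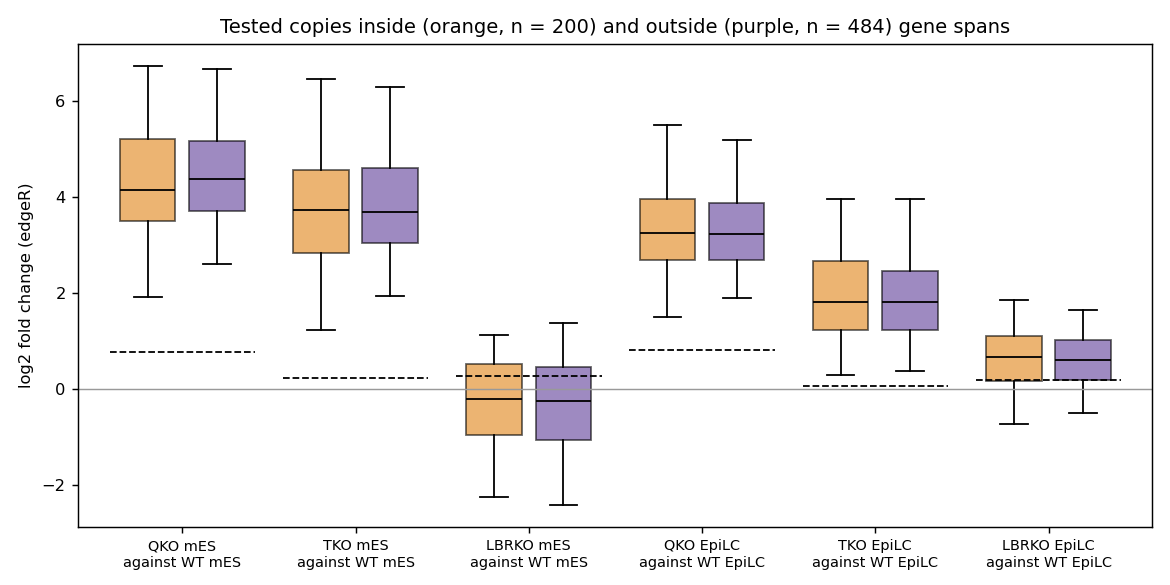
log2 fold changes against WT of the same stage for the 684 tested near full-length copies, 200 inside gene spans (orange) and 484 outside (purple), from edgeR. Boxes show quartiles, whiskers the 5th and 95th percentiles, and dashed lines the median of all 131824 tested TE copies; in QKO mES both boxes centre near 4 (4.15 and 4.38), and in LBRKO mES both lie near 0.

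The copy with the highest level inside a gene was L1MdA_I_dup4249 (chr16:42799192-42806186, 6995 bp, minus strand), in an intron of Zbtb20, a zinc finger repressor, opposite to the gene. In WT mES its lowest, median and highest levels were 0, 0.0544 and 0.228 CPM, and in LBRKO mES 0.149, 0.0689, 0.0424 and 0.0751 CPM. It stood at 28.6, 22.4, 25.6 and 30.9997 CPM in TKO mES and at 30.1, 39.7, 35.3 and 33.9 CPM in QKO mES, far from both. The log2 fold was 8.20 ± 0.26 (SE) in TKO mES (edgeR adjusted p = 4.76e-43) and 8.57 ± 0.26 in QKO mES (adjusted p = 1.4e-44). In EpiLC, TKO gave 17.2, 11.0, 18.5 and 16.2 CPM and QKO 24.3, 26.1, 35.1 and 26.5 CPM, against at most 0.342 in WT. L1MdA_I_dup4249 was also called higher in LBRKO EpiLC, where the 4 libraries held 0.499, 0.689, 0.752 and 0.766 CPM, above all 8 WT libraries (log2 fold 1.89 ± 0.29, adjusted p = 4.55e-06). Zbtb20 itself was at 5.18 CPM in WT mES, 7.15 in TKO and 6.46 in QKO (QKO log2 fold 0.31, adjusted p = 0.188).

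L1MdA_I_dup1557 (chr6:66977611-66986615, 9005 bp, minus strand) holds both reading frames and lies in an intron of Gng12, a G protein gamma subunit, while overlapping an exon of the non-coding gene Gm36816 on the same strand. WT mES libraries spanned 0.193 to 1.77 CPM with a median of 0.878, TKO mES held 24.6, 13.9, 19.3 and 22.97 CPM and QKO mES 29.5, 27.6, 21.3 and 18.0 CPM. The lamin mutants lay above every WT library and overlapped each other (QKO log2 fold 4.72 ± 0.24, adjusted p = 2.77e-30). In EpiLC L1MdA_I_dup1557 was also higher in LBRKO, at 5.47, 6.99, 7.96 and 6.92 CPM against 1.28 to 4.11 in WT (log2 fold 1.36 ± 0.22, adjusted p = 1.63e-05), where WT 1 to 4 averaged 3.68 CPM and WT 5 to 8 1.73. Gm36816, whose exon the copy overlaps, stood at 0.445 CPM in WT mES, 4.99 in TKO and 5.88 in QKO (log2 folds 3.52 and 3.76). Reads over the shared exon can be counted for both, so this rise is not a change separate from that of the copy. Gng12 fell from 24.3 to 12.6 and 10.8 CPM (log2 folds -0.95 and -1.17).

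Outside genes the highest copy was L1MdA_I_dup1453 (chr5:68370525-68379581, 9057 bp, minus strand), 46783 bp from the nearest gene span. Its WT mES libraries held 0.610 to 2.39 CPM with a median of 1.34, and LBRKO mES 1.06, 0.873, 1.15 and 0.450 CPM. TKO mES gave 44.9, 48.9, 20.4 and 55.4 CPM and QKO mES 45.1, 53.1, 55.7 and 38.8 CPM, with TKO mES 3 lowest of the 8 but still above all WT libraries. The log2 folds were 4.99 ± 0.23 (adjusted p = 3.07e-32) and 5.18 ± 0.23 (adjusted p = 2.1e-33). In EpiLC L1MdA_I_dup1453 separated the lamin mutants: TKO held 16.98, 19.06, 19.5 and 20.3 CPM and QKO 43.0, 45.3, 58.3 and 40.4 CPM (QKO against TKO log2 1.30 ± 0.25, adjusted p = 0.000156), while in mES that difference was 0.19 (adjusted p = 0.713).

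L1MdA_I_dup884 (chr3:91002308-91012451, 10144 bp, plus strand, 4197 bp from a gene span) differed from WT in every mutant of mES and between stages. WT mES libraries held 0.0452 to 0.387 CPM, TKO mES 17.8, 17.4, 17.5 and 19.2 CPM and QKO mES 18.5, 20.6, 17.3 and 20.8 CPM (QKO log2 fold 6.65 ± 0.23, adjusted p = 1.64e-40). LBRKO mES, at 0.0426, 0.0460, 0.127 and 0 CPM, was called lower than WT (log2 fold -1.69 ± 0.45, adjusted p = 0.0365), with overlapping libraries. In WT, L1MdA_I_dup884 rose from mES to EpiLC (log2 2.16 ± 0.24, adjusted p = 6.27e-12), to 0.371 to 1.52 CPM. TKO EpiLC held 11.1, 11.5, 9.82 and 11.0 CPM and QKO EpiLC 20.1, 18.7, 18.1 and 24.2 CPM, so the fold over WT was smaller in EpiLC than in mES in both (TKO difference -2.89, adjusted p = 8.24e-09; QKO difference -2.09 ± 0.33, adjusted p = 4.71e-06).

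L1MdA_I_dup3703 (chr13:50169212-50175750, 6539 bp, minus strand) was at 0 in 5 of 8 WT mES libraries and at most at 0.0761 CPM in the others. It held 10.2, 9.60, 9.25 and 11.4 CPM in TKO mES and 11.3, 12.98, 11.6 and 10.7 CPM in QKO mES (QKO log2 fold 8.74 ± 0.32, adjusted p = 2.61e-39). L1MdA_I_dup504 (chr2:80636219-80647789, 11571 bp, minus strand), the copy with the commonest ORF1, held 9.08, 8.92, 8.48 and 8.33 CPM in TKO mES and 10.1, 10.2, 10.05 and 7.61 in QKO mES, against 0 to 0.623 in WT mES. Both copies stood above every WT library in all 8 lamin mutant libraries of mES.

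Further copies among the highest were also called in TKO and QKO mES. L1MdA_I_dup4227 (chr16:28111675-28119116, opposite to Fgf12) held 7.86, 7.71, 8.22 and 9.02 CPM in TKO mES and 12.2, 13.02, 10.8 and 8.74 CPM in QKO mES, against 0.339 to 0.883 in WT. L1MdA_I_dup3168 (chr10:27688525-27701762, 13238 bp, the longest) held 14.2, 15.1, 12.6 and 16.4 CPM in TKO mES and 14.2, 19.9, 18.7 and 17.8 in QKO mES. L1MdA_I_dup3218 (chr10:46842790-46850785) held 13.8, 8.96, 15.9 and 16.9 CPM in TKO mES against 4.85, 5.04, 3.40 and 5.02 in TKO EpiLC (difference of the TKO fold between stages -3.68, adjusted p = 3.04e-07). L1MdA_I_dup4374 (chr16:95309806-95316823, opposite to Erg) varied between wells, with 8.41, 6.66, 21.5 and 7.47 CPM in QKO mES. L1MdA_I_dup189 (chr1:84241222-84247441, opposite to Pid1) held 8.75, 6.32, 8.42 and 9.02 CPM in TKO mES but 1.15, 1.49, 1.95 and 2.66 in TKO EpiLC (log2 -2.15 ± 0.27, adjusted p = 1.34e-09), with 5.90, 8.69, 4.84 and 5.88 in QKO EpiLC.

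**Figure D3:**
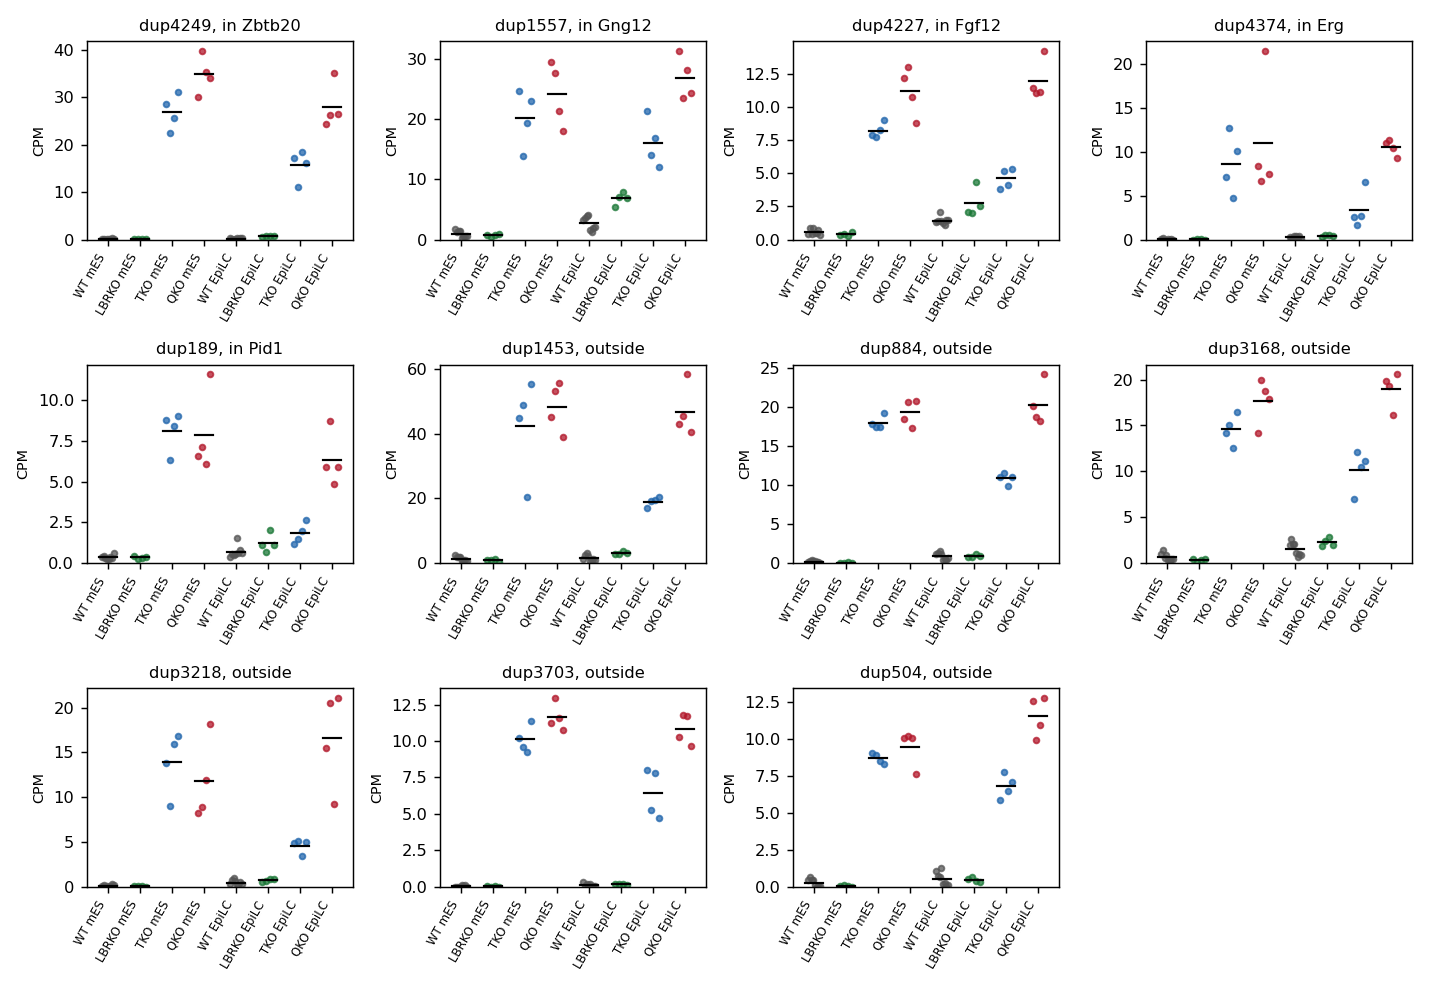
Level of 11 of the 12 copies with the highest mean over groups (5 inside and 6 outside gene spans) in each library, in CPM, with a line at each group mean. In every panel the TKO and QKO mES libraries stand above all WT and LBRKO mES libraries, and in most the TKO EpiLC libraries lie lower than the TKO mES ones. The copies were chosen by that mean, in which TKO and QKO weigh most, so the separation from WT follows in part from the choice.

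Some copies with lower levels also had large ratios, resting on almost no reads in WT. L1MdA_I_dup2226 (chr8:109064427-109071422, opposite to Zfhx3 in an intron) had 3 reads over the 8 WT mES libraries and 608 over the 4 QKO mES libraries, a CPM ratio of 534 (95% counting interval 182 to 2595), at 6.72, 6.85, 5.57 and 2.74 CPM. In EpiLC, TKO libraries held 4.68, 6.46, 4.82 and 0.726 CPM of L1MdA_I_dup2226 and QKO libraries 3.70, 4.89, 1.11 and 1.51. L1MdA_I_dup1457 (chr5:69274566-69281952, in an intron of Kctd8 on the gene's strand) rose in QKO mES by a ratio of 479 (163 to 2331), with wells at 1.98, 7.62, 8.48 and 2.40 CPM. L1MdA_I_dup2602 (chrX:61974875-61981238) had a ratio of 576 (196 to 2800) in QKO mES with wells at 2.76, 13.8, 2.63 and 4.90 CPM. L1MdA_I_dup3323 (chr10:112341918-112347307) had no read in the 8 WT mES libraries and 82 in TKO mES, at least 67.1-fold higher against a floor of 3 counts over the WT group. Wells of QKO mES differed several-fold for L1MdA_I_dup1457 and L1MdA_I_dup2602, and the intervals cover counting error only.

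The same host genes did not move as one. Of the 326 genes that hold a near full-length copy, 198 were tested; 45 were higher and 18 lower in QKO mES (22.7% and 9.09%), where 10.6% and 6.66% of all 23399 tested genes were, and 25 higher and 18 lower in TKO mES, against 2.68% and 3.77% of all genes. In EpiLC 35 host genes were higher and 33 lower in QKO (13% and 8.16% of all genes) and 10 higher and 8 lower in TKO (1.44% and 1.48% of all). Of the 187 tested intronic copies 184 were higher in QKO mES; 115 of these lay in a tested host gene, and for 27 the host gene was called higher as well. In TKO mES the numbers were 162, 97 and 14, in QKO EpiLC 181, 112 and 20, and in TKO EpiLC 94, 57 and 5.

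Among the hosts of the named copies, Dnah6, a dynein heavy chain, rose from 0.205 CPM in WT mES to 1.55 in TKO and 2.63 in QKO (log2 folds 2.93 and 3.70). Zfhx3 stood at 81.7 CPM in WT mES, 95.4 in TKO and 96.7 in QKO, and Pid1 at 25.6, 23.9 and 29.96 CPM. Fgf12, Erg, Kctd8 and Otogl were near 0 and not tested.

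Up to 2000 bases, the level of a class of copies went with the length of its 5′ end. Levels here are CPM per 1000 unique 150-base windows, which allows for how much of a copy can take a read. By the number of bases in front of ORF1, where the monomers lie, the level in TKO mES was 0.150 for the 21 copies with at most 500 bases and 0.383 ± 0.023 (SD over libraries, n = 4) for the 692 copies with 501 to 1000. It was 0.913 ± 0.029 for the 275 copies with 1001 to 1500, 1.75 ± 0.088 for the 95 with 1501 to 2000 and 3.77 ± 0.43 for the 39 with more. QKO mES gave 0.202, 0.564, 1.32, 2.42 and 4.49 over the same classes, and WT mES 0.0156, 0.0364, 0.0577, 0.0659 and 0.113. The highest copies carried the top class: 8 of its 39 copies are among the 10 with the highest level. Without those 10, chosen after seeing the data, the 31 remaining copies stood at 1.75 ± 0.199 in TKO mES, 2.17 ± 0.189 in QKO mES and 0.0427 in WT mES, no higher in QKO and WT than the class of 1501 to 2000 bases and level with it in TKO, while in TKO and QKO mES each of the first 4 classes still stood above the one before it. With all copies counted, the 39 copies with the longest 5′ stretch gave 29.9% of the TKO mES level and 15.5% of the WT mES level, and in EpiLC they stood at 0.292 in WT, 0.529 in LBRKO, 2.14 in TKO and 4.77 in QKO.

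**Figure D4:**
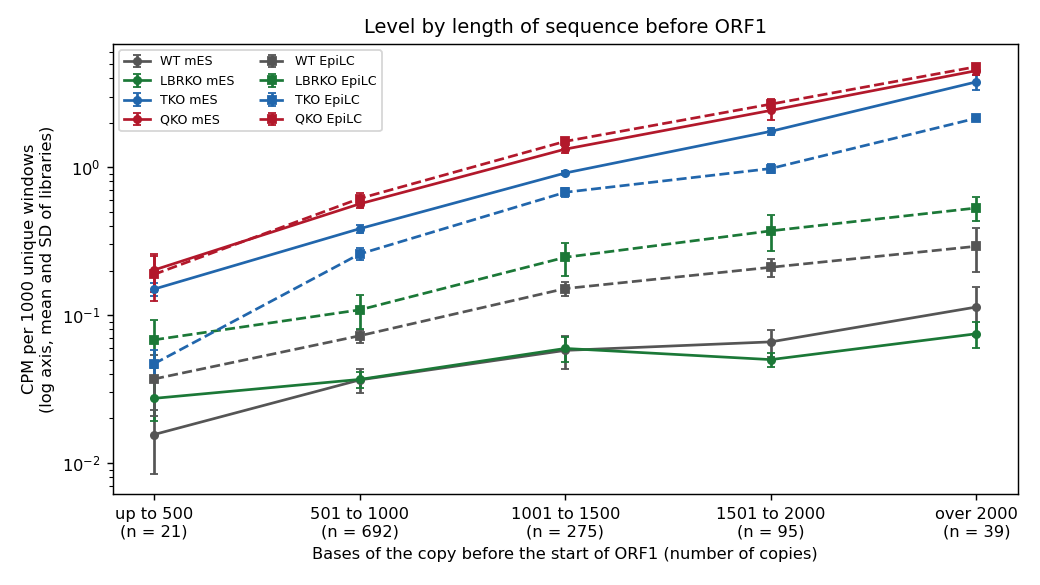
Level per 1000 unique windows (CPM, log axis) of copies grouped by the bases between their 5′ end and ORF1, mean and SD over libraries of each group. In TKO and QKO mES the plotted level rises over every class, from 0.150 and 0.202 for copies with at most 500 bases to 3.77 and 4.49 for those with over 2000, where 8 of the 10 highest copies lie.

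Whole length and intact frames went with the level too. The 106 copies of 7000 bp or more stood at 0.088 ± 0.025 per 1000 unique windows in WT mES, 2.57 ± 0.24 in TKO and 3.22 ± 0.24 in QKO, and held 41.1% of the TKO mES level but 24.2% of the WT mES level. The 268 copies of 5000 to 5499 bp stood at 0.0294, 0.196 and 0.299. These classes were not recomputed without the highest copies. Copies with both reading frames (357) gave 0.0713, 1.34 and 1.76, copies with only ORF1 (765) 0.0417, 0.762 and 1.06, and copies with neither (175) 0.0215, 0.211 and 0.321. As a description over the 1329 copies of the same libraries, the Spearman correlation of level with length was 0.39 in TKO mES and 0.27 in WT mES. The level here is not taken per unique window, and a CPM of a copy grows with its length, so a positive value says nothing about transcription per length. The lower length limit is a cut through a range: just inside it L1MdA_I_dup139 (5009 bp) held 0.0144 CPM in WT mES, 0.418 in TKO and 0.598 in QKO while L1MdA_I_dup4359 (5008 bp) was near 0 throughout, and just outside it L1MdA_I_dup1767 (4970 bp) held 0, 0.201 and 0.359 CPM and L1MdA_I_dup3969 (4977 bp) 0.00317, 0.0321 and 0.0653.

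By chromosome the X held the most copies, 156, followed by chromosome 3 with 112 and chromosome 1 with 111. The 67 copies on chromosome 8 summed to 1.47 CPM in WT mES, 18.6 in TKO and 32.1 in QKO.

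Repeats beside the outside copies stood higher in the lamin mutants of mES as well, by more CPM per Mb on the 3′ side than on the 5′ side. Reads over other repeat copies without any L1Md copy and outside gene spans, within 10 kb of the 969 outside copies, were summed per Mb covered. On the 3′ side they stood at 7.18 ± 0.924 CPM per Mb in WT mES (SD, n = 8), 16.7 ± 0.728 in TKO and 22.9 ± 1.45 in QKO (n = 4 each), and on the 5′ side at 3.40 ± 0.787, 6.26 and 10.6. As a ratio to WT, QKO mES was 3.19 on the 3′ and 3.11 on the 5′ side, and TKO mES 2.32 and 1.84, so for this set of repeats the QKO ratio was about the same on both sides. No test between the sides was made. In the first kb past the 3′ end they stood at 3.26, 42.5 and 58.2 CPM per Mb. The outside copies themselves stood at 4.36 ± 0.863, 81.5 ± 4.94 and 111 ± 5.96 CPM per Mb. LBRKO mES stood at 6.01 on the 3′ and 2.83 on the 5′ side. In EpiLC the 3′ side stood at 8.16, 15.7 and 22.2 CPM per Mb in WT, TKO and QKO and the 5′ side at 6.16, 7.01 and 10.4. The planned set of repeats was wider and left out only L1MdA_I copies. With that planned set within 10 kb, WT mES libraries held 7.29 to 10.04 CPM per Mb on the 3′ side and QKO mES libraries 24.8 to 27.1. On the 5′ side they held 4.86 to 7.08 and 11.4 to 13.8. The QKO mES ratio to WT was thus higher on the 3′ side with the planned set. On the 5′ side in EpiLC with that set, TKO libraries at 8.47 to 9.87 CPM per Mb overlapped WT libraries at 7.43 to 9.51.

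Reads far from genes moved with QKO in general. Old L2 and MIR copies at least 50 kb from any gene (17497 copies) held 4.21 ± 1.43 CPM per Mb in WT mES (SD, n = 8), 5.04 in LBRKO, 6.62 ± 0.462 in TKO and 13.2 ± 1.69 in QKO (n = 4 each), and 3.26, 3.69, 2.81 and 7.80 in the EpiLC groups in the same order. Single libraries stood apart in these reads. LBRKO EpiLC 3 held 5.66 CPM per Mb against 2.72, 2.84 and 3.56 in the others of its group. WT mES 7 held 7.37 against 2.87 to 4.91 in the other WT mES libraries. Both libraries also had the highest summed level of the near full-length copies in their group. The part of such reads in the flank values and in the levels of these libraries was not tested.

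**Figure D5:**
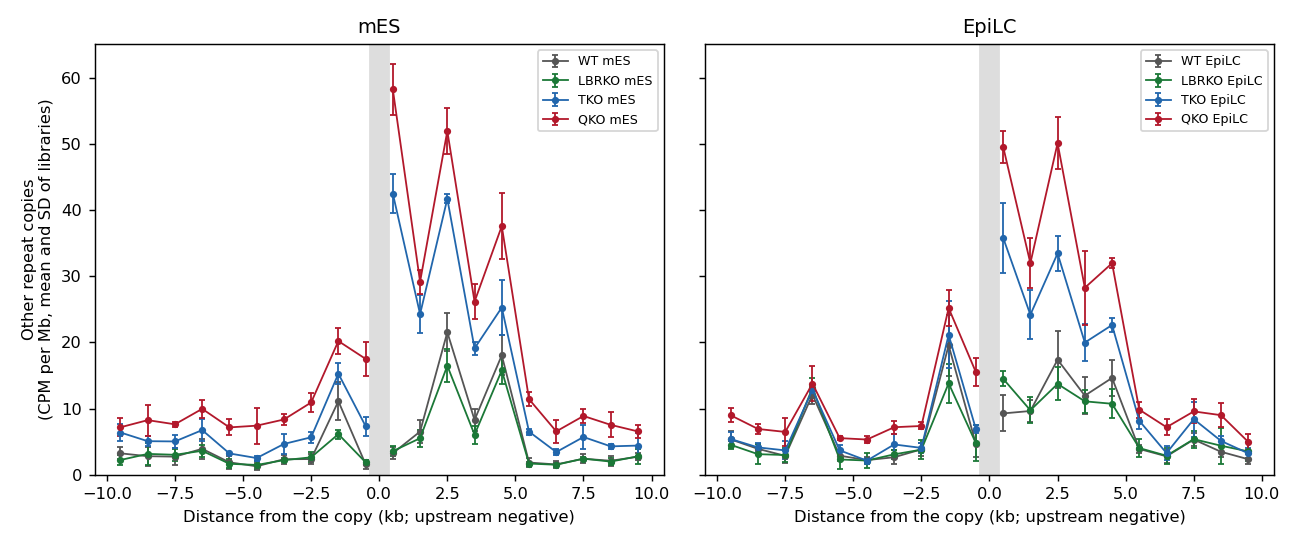
Reads over other repeat copies (no L1Md, outside gene spans) in 1 kb bins up to 10 kb on either side of the near full-length copies outside gene spans, in CPM per Mb covered, mean and SD over the libraries of each group. In the first bin on the 3′ side QKO and TKO mES stand at 58.2 and 42.5 against 3.26 in WT, and beyond 5 kb the groups draw closer.

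Loss of LBR alone left the copies near the WT level in mES. Of the 684 tested copies 1 was called higher (0.409% of all tested TE copies) and 2 lower (0.457% of all), with a median log2 fold of -0.25 against 0.27 over all. The higher copy, L1MdA_I_dup2006 (chr7:113023317-113030087), stood at 0.452 CPM against 0.121 in WT (log2 fold 1.89 ± 0.39, adjusted p = 0.00228). The lower ones were L1MdA_I_dup884 and L1MdA_I_dup255 (chr1:118024556-118029793), the latter at 0.255, 0.230, 0.127 and 0.1001 CPM against 0.685 ± 0.331 in WT (log2 fold -1.93 ± 0.47, adjusted p = 0.0154). Against WT 5 to 8, of like depth, 1 copy was higher and 1 lower, and against WT 1 to 4 12 were higher and 12 lower. The count of lower copies is small and moved with single libraries: it was 1 without WT mES 2, 3 or 4 or LBRKO mES 1 or 4, 4 without WT mES 6 or 8 or LBRKO mES 3, and 6 without WT mES 7.

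In EpiLC the LBRKO copies stood somewhat higher than WT. There, 30 copies were called higher (1.21% of all), 14 inside and 16 outside gene spans, with a median log2 fold of 0.62 against 0.19 over all and a positive fold in 564 of 684. Without LBRKO EpiLC 3 the count was 12, and against WT 5 to 8 it was 38. They include L1MdA_I_dup4249 and L1MdA_I_dup1557. L1MdA_I_dup4227, at 2.11, 2.02, 4.30 and 2.55 CPM against 1.08 to 2.07 in WT, missed the fold threshold (fold 1.93, adjusted p = 0.000492), as did L1MdA_I_dup1453 (log2 fold 0.99, adjusted p = 0.00749). Whether the LBRKO effect differs between stages was tested after seeing these values: 10 copies had a larger effect in EpiLC (0.348% of all), with a median difference of 0.92 log2 against -0.07 over all, among them L1MdA_I_dup1557 (1.72 ± 0.36, adjusted p = 0.00466) and L1MdA_I_dup4227 (1.54, adjusted p = 0.00206). The count was 6 without LBRKO mES 2 and 5 without LBRKO mES 4.

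Removing LBR on top of the lamins added little per copy in mES and more in EpiLC. Between QKO and TKO mES 14 copies were called higher in QKO (1.29% of all) and 1, L1MdA_I_dup2820, lower (0.124% of all), with a median log2 difference of 0.57, close to the 0.52 over all TE copies. Leaving out TKO mES 3 gave 4 copies, TKO mES 1 or 2 gave 6, QKO mES 2 or 3 gave 7 and QKO mES 1 gave 9. L1MdA_I_dup3876 (chr14:43219206-43224567) differed most, at 0.844, 0.651, 1.84 and 0.960 CPM in QKO against 0.0330, 0.214, 0 and 0 in TKO (log2 4.10 ± 0.68, adjusted p = 3.17e-05). In EpiLC 249 copies were higher in QKO than in TKO (12.6% of all), 67 inside and 182 outside, with a median log2 difference of 1.37 against 0.72. Scaled by TE counts, 5 copies were higher in QKO than in TKO mES and 35 in EpiLC. L1MdA_I_dup1515 (chr5:96161629-96169230) led them, at 1.05 ± 0.935 CPM in QKO and 0.0486 ± 0.0480 in TKO (log2 4.403 ± 0.80, adjusted p = 4.18e-05), a copy with a wide spread in QKO.

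Against the sum of the single effects, few copies differed. In mES 3 copies were higher in QKO than the LBRKO and TKO effects added (0.793% of all), and in EpiLC 4 (0.874% of all), with median differences of 0.88 against 0.25 and 0.78 against 0.52 log2. The 4 were L1MdA_I_dup3865, L1MdA_I_dup1089, L1MdA_I_dup1609 and L1MdA_I_dup1626, and the 3 were L1MdA_I_dup1830, L1MdA_I_dup1687 and L1MdA_I_dup255. Of these, L1MdA_I_dup255 (4.35, adjusted p = 9.69e-06) rests on QKO mES 1 at 5.29 CPM, where the other QKO mES libraries held 0.498, 0.157 and 0.480. In mES the count was 6 without WT mES 1 or LBRKO mES 4 and 5 without WT mES 2, 6, 7 or 8 or LBRKO mES 3. In EpiLC it was 16 without LBRKO EpiLC 3, 7 without WT EpiLC 8, 2 without TKO EpiLC 2 or QKO EpiLC 4, and 1 without LBRKO EpiLC 1, TKO EpiLC 1 or QKO EpiLC 1.

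From mES to EpiLC more copies rose than fell in WT and LBRKO, and more fell than rose in TKO. In WT 264 of the 684 copies rose (11% of all TE copies) and 2, L1MdA_I_dup256 and L1MdA_I_dup774, fell (10% of all), with a median of 1.32 log2 against 0.18 over all, 80 of them inside and 184 outside; with WT 1 to 4 alone 163 rose, and with WT 5 to 8 alone 128. In LBRKO 312 rose (5.87% of all; median 2.24 against 0.07). In TKO 66 fell (9.27% of all) and 7 rose (6.21% of all), with a median of -0.53 against 0.01, and in QKO 18 rose (9.21% of all) and 6 fell (7.88% of all), with a median of 0.29 against 0.21. The largest rise in WT was that of L1MdA_I_dup2187 (chr8:78611663-78618608), from 2 reads over 8 mES libraries to 75 over 8 EpiLC libraries (0.00861 to 0.271 CPM).

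The effect of lamin loss was also compared between stages directly. The TKO fold was smaller in EpiLC than in mES for 94 copies (0.152% of all), with a median difference of -1.86 log2 against -0.15 over all, and the QKO fold for 61 (0.589% of all), with a median of -1.10 against 0.05; with WT 5 to 8 alone the counts were 50 and 27. L1MdA_I_dup2447 (chrX:18581808-18588994) is an example, at 0.792, 0.856, 0.825 and 1.095 CPM in TKO mES and 0.176, 0.142, 0.115 and 0.151 in TKO EpiLC (difference of the fold -5.11, adjusted p = 0.000507). L1MdA_I_dup2370 (chr9:87714781-87722500) was lower than WT in TKO EpiLC, at 0, 0.106, 0.497 and 0.303 CPM against 1.06 ± 0.187 (log2 fold -2.17 ± 0.41, adjusted p = 0.000111), while in mES TKO held 0.557 ± 0.216 CPM against 0.208 ± 0.116 in WT.

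Of the genes that hold L1 in check or act on its RNA, 3 to 4 were called in each mES mutant. Of a list of 42, chosen by function, 41 were tested in the gene table. In QKO mES 2 were higher (10.6% of all genes) and 1 lower (6.66% of all): Dnmt3l, the cofactor of the de novo DNA methyltransferases, rose 4.85-fold, Piwil2, a PIWI protein, rose 3.51-fold, and Mov10l1, a piRNA pathway helicase, fell (log2 -1.23). In TKO mES Dnmt3l rose 2.496-fold and Piwil2 2.17-fold, while Piwil4 (log2 -1.20) and Tdrd1 (log2 -2.10) fell, where 2.68% of all genes were higher and 3.77% lower. In LBRKO mES Dnmt3l rose 7.37-fold, and Piwil4 and Mael, also of the piRNA pathway, fell (log2 -1.54 and -1.01), where 3.06% of all genes were higher and 3.25% lower. These counts lie below or near the shares over all genes and are no result about the list.

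In EpiLC 5 of the 41 were higher in QKO, close to the 13% of all genes: Dnmt3l (4.21-fold), Morc1 (3.82-fold), a MORC ATPase of transposon silencing, Tex19.1 (2.84-fold), Piwil2 (2.63-fold) and Tet1 (2.03-fold), an enzyme of DNA demethylation. In LBRKO EpiLC Dnmt3l (4.35-fold), Morc1 (3.45-fold) and Tet2 (2.46-fold) were higher, with 3.04% of all genes higher. Between the stages of WT 11 of the list rose (18.2% of all genes) and 5 fell (12.9% of all), among them the DNA methyltransferases Dnmt3a (log2 4.04) and Dnmt3b (log2 4.32) and the piRNA gene Tdrd1 (log2 6.18), which rose, and Morc1 (log2 -2.85), Tet2 (log2 -3.30), the RNA helicase gene Mov10 (log2 -2.99) and Zc3hav1 (log2 -3.35), the zinc finger antiviral protein, which fell.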

How the data were processed

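Total RNA of 40 libraries, each from 1 well, was made with a stranded kit and sequenced as paired 150-base reads. The authors trimmed reads with cutadapt 2.5, aligned them with STAR 2.7.10a to GRCm39, keeping reads with a single alignment, and counted them with featureCounts 1.6.4 over genes and over single TE copies; these deposited values are raw counts. A further deposited table holds expected counts (TEcount), in which reads with several alignments are shared out among families; it was used only for the L1MdA_I family level. How the counting treated strand is not stated in the sources used here.

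Library sizes and TMM factors came from the gene counts (22.6 to 48.9 M per library). TE copies that passed filterByExpr (minimum count 10) were fitted together with 1 mean per group in edgeR 4.0.16 (R 4.3.3, quasi-likelihood test, Benjamini-Hochberg over all 131824 copies), and genes in the same way. DESeq2 1.42.0 served as an alternative, and GenomicRanges 1.54.1 placed copies in gene spans. The fits were tested on simulated data with known changes. Standard errors are those of the fitted log2 fold. Copies were named by rule: the 6 inside and 6 outside gene spans with the highest level, up to 4 per comparison with the highest or lowest folds among called copies whose libraries did not overlap and whose mean passed 0.5 or 0.2 CPM, and their host genes (1 of these copies is not reported here); copies just inside and outside the length limit, and copies or genes that missed a threshold, are given as values. The copies, the gene lists and the tests were chosen with earlier results of these data known. Alternatives were another scaling, no filter, parts of the WT libraries, the replicate block, another fold, a longer length limit and leaving out single libraries. Sequence features came from the GRCm39 reference.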

Additional observations from a re-analysis of the deposited data

Results flagged for a closer look

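Of 120 groups of values checked for a library far from the others of its group, 10 had one, where chance gives about 1 in 20. WT mES 7 had the highest summed level of its group at 58.7 CPM, with 21.1 CPM inside and 37.5 CPM outside gene spans. L1MdA_I_dup4227 stood apart in WT EpiLC 3 at 2.07 CPM and in QKO EpiLC 4 at 14.2 CPM. L1MdA_I_dup4374 stood apart in QKO mES 3 at 21.5 CPM, L1MdA_I_dup189 in WT EpiLC 5 at 1.51 CPM and L1MdA_I_dup1453 in LBRKO EpiLC 3 at 3.70 CPM. L1MdA_I_dup3218 was lowest in TKO EpiLC 3 at 3.40 CPM and L1MdA_I_dup504 in QKO mES 4 at 7.61 CPM.

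Effects that differed between stages or from the sum of single effects, by the interaction tests in edgeR, were flagged for 94 copies (TKO, smaller in EpiLC), 61 copies (QKO, smaller in EpiLC), 10 copies (LBRKO, larger in EpiLC), and 3 copies in mES and 4 in EpiLC where QKO exceeded the sum of the LBRKO and TKO effects.

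A row named L1MdA_I without a copy number (chr1:11793452-11800105, 6654 bp), left out by the rule on names, held 0.150 CPM in TKO mES, 0.310 in QKO mES and 0.520 in QKO EpiLC. The highest WT library held 0.0670 CPM in mES and 0.156 in EpiLC.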

How the results depend on the processing

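DESeq2 size factors left all 30 main results on the same side, and leaving out chromosome Y all 18; among single named copies no direction reversed. Scaling by TE counts shifted the median log2 fold of all TE copies by -0.80 in QKO mES, -0.27 in TKO mES, -0.30 in LBRKO mES and -0.87 in QKO EpiLC. It gave 8 copies lower in LBRKO mES, 5 higher in QKO than TKO mES, 35 in EpiLC, 16 lower between QKO stages and 0 above the sum in EpiLC, and summed ratios of 13.3 (QKO mES), 5.68 (QKO EpiLC) and 1.36 (QKO to TKO, EpiLC), with reversals to 0.947 (QKO to TKO, mES) and 0.916 (QKO between stages). Without the filter 1131 copies were higher in QKO mES and 1107 in QKO EpiLC. With copies of at least 6000 bp the counts were 423 (QKO mES), 391 (TKO mES), 420 (QKO EpiLC), 1 (LBRKO mES lower), 8 (QKO to TKO mES) and 3 (QKO between stages, lower), and the TKO mES summed ratio was 20.9. With WT 1 to 4 the counts were 12 and 12 (LBRKO mES higher and lower), 1 (LBRKO EpiLC lower), 204 (TKO EpiLC), 26 (QKO to TKO mES), 163 (WT stages), and 14 and 13 above the sum in mES and EpiLC. With WT 5 to 8 they were 1 (LBRKO mES lower), 128 (WT stages), 50 and 27 (TKO and QKO effects smaller in EpiLC) and 7 (above the sum, mES). DESeq2 as the test gave 4 (LBRKO mES lower) and 12 (above the sum, EpiLC). It gave no adjusted p for 367 of the 684 copies in LBRKO mES. The same held for 384 and 375 copies in the comparisons of the TKO and LBRKO effects between stages. Such copies could not be called.

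By the rule used, replicate numbers did not pair the libraries: in no pair of groups was every correlation of same-numbered libraries over 0.1. In the largest, WT mES with WT EpiLC, 3 of 8 libraries correlated best with their own number. There the same-number correlations were 0.087 to 0.58, with a mean of 0.28 against -0.04 for other numbers. For TKO EpiLC with QKO EpiLC the means were 0.24 and -0.07, while for LBRKO mES with TKO mES they were -0.17 and 0.06. A partial pairing was not tested. With the replicate block the counts were 5 and 15 (LBRKO mES higher and lower), 1 (LBRKO EpiLC lower), 22 (QKO to TKO mES), 18 and 17 (above the sum, mES and EpiLC) and 19 (LBRKO effect larger in EpiLC).

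At 10-fold in place of 2-fold the counts were 313 (QKO EpiLC), 84 (TKO EpiLC), 1 (LBRKO EpiLC higher), 0 (LBRKO mES lower), 3 and 3 (QKO to TKO, mES and EpiLC), 19, 125, 0 and 0 (WT up, LBRKO up, TKO down and QKO down between stages), 40 and 11 (TKO and QKO effects smaller in EpiLC), 0 (above the sum, EpiLC) and 3 (LBRKO effect larger in EpiLC). Leaving out 1 library gave 665 to 674 (QKO mES), 584 to 622 (TKO mES), 1 to 6 (LBRKO mES lower), 656 to 667 (QKO EpiLC), 254 to 320 (TKO EpiLC), 12 to 34 (LBRKO EpiLC higher), 4 to 11 (QKO to TKO mES), 2 to 6 and 1 to 16 (above the sum, mES and EpiLC) and 5 to 13 (LBRKO effect larger in EpiLC). Flank ratios to WT that moved were, upstream, 2.74 at 5 kb and 3.11 outside gene spans (QKO mES), 1.84 outside gene spans (TKO mES) and 1.35 without L1Md copies (QKO EpiLC), and downstream at 5 kb 3.46 (QKO mES), 2.55 (TKO mES), 3.17 (QKO EpiLC) and 2.02 (TKO EpiLC), with 1.92 outside gene spans (TKO EpiLC). The cause of these shifts was not tested beyond the scale, the filter and the smaller number of copies or libraries. Depth limits the copies near 0 in WT, whose folds rest on few reads.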

Other observations

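WT libraries 1 to 4 and 5 to 8, which differ in depth, also differed for some of the highest copies. L1MdA_I_dup504 stood at 0.499 ± 0.0831 CPM (SD, n = 4) in WT mES 1 to 4 and at 0.0414 in WT mES 5 to 8, and at 0.906 and 0.138 CPM in EpiLC. L1MdA_I_dup1557 stood at 1.45 ± 0.235 against 0.439 ± 0.164 CPM in mES and at 3.68 ± 0.413 against 1.73 ± 0.348 in EpiLC. All of WT 1 to 4 lay above all of WT 5 to 8 for 4 of the 12 highest copies in mES and 5 in EpiLC, and the opposite held for 1 of the 12 in EpiLC. Over all 1329 copies the numbers were near each other: 17 copies one way and 27 the other in mES, and 29 and 21 in EpiLC. The share over all TE copies was not computed for this split, so the counts are no result about these copies. These parts of WT are not groups of the labels, and no test was made.

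Single wells stood out for a few copies. L1MdA_I_dup4269 held 15.5 CPM in QKO mES 1 against 0.536, 0.746 and 0.343 in the other QKO mES libraries, 7.56 CPM in TKO EpiLC 2 against 0.132, 0.268 and 0.151, and 6.29 CPM in QKO EpiLC 2 against 0.432, 0.458 and 0.420. This pattern was noticed after the values were seen.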
